A study of Mus musculus with 4 samples.

Results

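Antisense transcripts are the 99 rows of the deposited expression table that carry the biotype antisense, among 12814 genes in all. They were taken by that label alone. The study kept genes covered by at least 20 reads in the table, so a member can be listed through 1 library only. RNA came from the inner ear of newborn mice of the *Atoh1/nGFP* line (C57BL/6 background), in which a nuclear green fluorescent protein is driven by regulatory sequence of *Atoh1*, a transcription factor that hair cells need, and marks the hair cells (HCs), the mechanosensory cells of hearing and balance. HCs were sorted as GFP-positive cells that also carried the epithelial surface protein CD326, and the epithelial cells around them, called ENSCs in the sample labels, carried CD326 without GFP. All 4 groups had the same genotype and age and no treatment, and they were HCs and ENSCs of the cochlea and HCs and ENSCs of the vestibular system. Several mice were pooled for each sample per the study's methods, and the table held 1 column per group, called a library here. Whether such a column is a single library, a pool or a mean of replicates is not stated, so no difference below has a replicate error and none was tested.

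An antisense transcript is read from the strand opposite to a protein-coding gene, so its RNA can be complementary to the messenger RNA of that gene where their exons meet. Some such RNAs silence or activate the gene they overlap, others serve as precursors of small RNAs or share a promoter with a neighbour that runs the other way, and for many no function is known. Whether a count belongs to the antisense transcript or to its partner can be settled only when the library keeps the strand and the counting uses it. The strand setting of the counting is not stated for these data, so where exons share bases, reads of the pair could not be told apart. Where only the spans overlap, reads of unspliced partner RNA over an exon of the member could not be told apart either.

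The deposited value is a signal, the read count per gene after quantile normalization across the 4 libraries and a floor of 20. At its low end each library held a range of tied signals that carried no order of their own, up to 24.25 in cochlear HCs, 22.75 in cochlear ENSCs, 30.5 in vestibular HCs and 20 in vestibular ENSCs. A fold against a signal inside this range is given as a lower bound, computed against the top of the range, and no fold is given when both signals lay inside it. A fold against a signal just above the range is printed as it is, though that signal too can lie near the floor. Where a pair of values is given for HCs or for ENSCs, or for both organs, the cochlear one stands first. Markers of the sorted cells were checked first. The summed signal of 10 HC markers was 37419.8 and 32616.2 in HCs against 1879.5 and 1467.25 in ENSCs, and 8 of the 10 were at the floor in vestibular ENSCs. A list of 4 neuronal genes (*Nefl*, *Nefm*, *Snap25* and *Stmn2*, of 7 listed) moved with the HC libraries, at 5697.75 and 6703.75 against 252.5 and 80. Mesenchymal markers (7 of 8 in the table) summed to 16356.2 in cochlear ENSCs and to between 390.5 and 2269.25 in the other libraries. Markers of supporting cells (10 genes) summed to 98992.5 in cochlear ENSCs and to between 13851.2 and 23518.5 elsewhere, and 5 epithelial genes ranged from 1758 in vestibular HCs to 21993.8 in vestibular ENSCs. Of 4 glial genes the sum ran from 252.25 in vestibular HCs to 1566.25 in vestibular ENSCs, and of 7 blood and vessel genes 1, *Cd68*, was in the table, at no more than 24.75. The part of any list in the differences described below was not tested.

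Of the 99 antisense transcripts, 93 were found in the gene annotation of the mm9 build (NCBIM37). A protein-coding gene lay on the other strand across 72 of them. In 40 the exons of both genes shared bases, and in 32 the gene spans overlapped without a shared exonic base. Another 8 ran head to head with a protein-coding gene, with start sites within 1000 bases of each other, and are called divergent. For 13 there was no such gene. The annotation used gives the type processed transcript to 84 of the 93, long intergenic RNA to 7 and protein coding to 2 (*1700012B15Rik*, named here after its values were seen, and *2610017I09Rik*), and 3 overlap a protein-coding gene on their own strand, so the label antisense of the table is not that of this annotation. The partner was in the table for 73 members, and these 73 pairs had 72 distinct partners because *Fmn1* had 2 antisense transcripts. Among the 40 that shared exonic bases, the shared part was 15.25% of the member's exonic length at the median, with a range from 1.642% to 62.12%, and in 28 it included coding bases of the partner. The antisense transcripts were shorter than most genes, with a median exonic length of 1643 bases against 3819 bases for all matched genes. Most of their sequence occurred at 1 place in the genome, since in 64 members every stretch of 50 bases occurred once and in 2 more than 10% of the stretches occurred elsewhere.

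Sequences of 2 loci are shown because they make the arrangement of a pair concrete. *Emx2os* and *Emx2*, and *Gm4473* and *Msrb3*, start close to each other and run apart, so that 1 short stretch holds both start sites. Each sequence below is read 5′ to 3′ on the strand of the protein-coding gene from the mm9 genome, and capitals mark the first 15 bases of each transcript, those of the antisense transcript at the left (as the complementary strand) and those of the coding gene at the right. The stretch for *Emx2os* is chr19:59533111-59533194 on the plus strand, and that for *Gm4473* is chr10:120336143-120336227 on the minus strand.
*Emx2os* to *Emx2*: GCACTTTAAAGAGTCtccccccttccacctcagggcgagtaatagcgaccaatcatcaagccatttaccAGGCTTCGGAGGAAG
*Gm4473* to *Msrb3*: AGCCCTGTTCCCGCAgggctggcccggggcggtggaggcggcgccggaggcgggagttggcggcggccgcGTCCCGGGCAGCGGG

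The start sites were 55 and 56 bases apart. Of the bases between the capitals, 53.7% were G or C at *Emx2os* and 87.3% at *Gm4473*.

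In another arrangement the antisense exon lies inside coding sequence. The first exon of *Gm13601* (168 bases) and that of *D230002A01Rik* (124 bases) fall wholly within coding exons of *Xirp2* and *Irx3*, so a read from these bases would match either gene. The stretches are chr2:67354395-67354602 on the plus strand and chr8:94324294-94324457 on the minus strand of mm9, read on the strand of the coding gene, with the shared bases in capitals and 20 coding bases on each side in lower case.
*Gm13601* in *Xirp2*: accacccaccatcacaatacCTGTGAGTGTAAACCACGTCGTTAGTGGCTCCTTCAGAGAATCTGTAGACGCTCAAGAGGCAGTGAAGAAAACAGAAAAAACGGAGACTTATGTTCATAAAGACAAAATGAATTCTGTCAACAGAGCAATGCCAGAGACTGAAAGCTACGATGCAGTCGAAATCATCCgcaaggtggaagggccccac
*D230002A01Rik* in *Irx3*: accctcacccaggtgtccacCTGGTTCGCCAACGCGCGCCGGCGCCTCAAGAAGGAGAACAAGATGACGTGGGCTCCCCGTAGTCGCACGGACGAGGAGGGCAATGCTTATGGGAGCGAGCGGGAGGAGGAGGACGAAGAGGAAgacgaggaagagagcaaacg

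**Figure D1:**
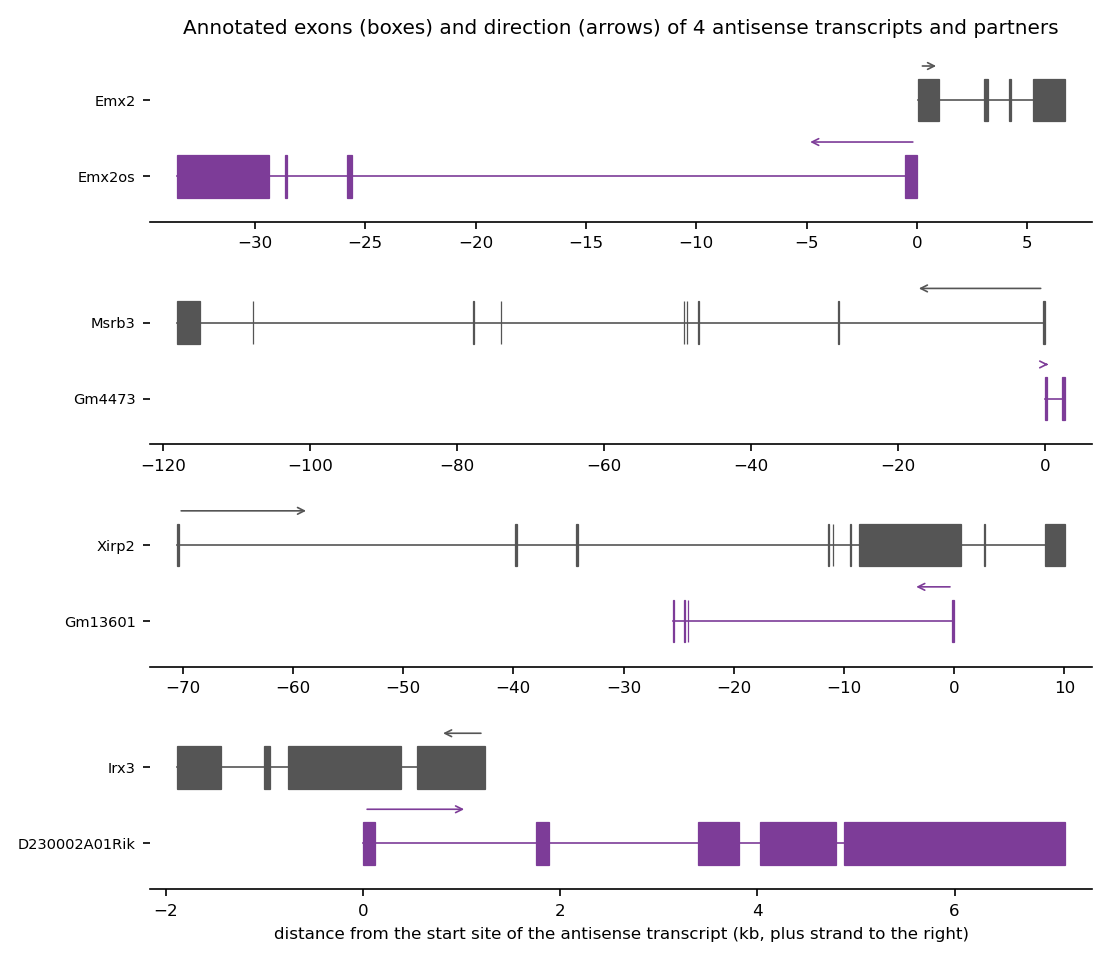
Annotated exons (boxes) and transcript direction (arrows) of 4 antisense transcripts (purple) and their protein-coding partners (grey), as distance in kb from the start site of the antisense transcript on the mm9 plus strand. *Emx2os* and *Gm4473* start 55 and 56 bases from their partners and run away from them, whereas the first exons of *Gm13601* and *D230002A01Rik* lie inside an exon of *Xirp2* and of *Irx3*.

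Antisense transcripts had low signals. Their highest signal over the 4 libraries was 60 at the median, against 240.5 for all genes, and 32 of the 99 (32.32%) reached a signal of 100 in at least 1 library, against 71.7% of all genes. A gene at the floor in 1 library can be 3-fold higher in another only from a signal of 60, which 51 members reached, against 83.6% of all genes. Above the floor in every library were 26 members, against 76.35% of all genes. At the floor were 21 in cochlear HCs, 36 in cochlear ENSCs, 39 in vestibular HCs and 55 in vestibular ENSCs, whereas 11% of all genes were at the floor in each. Set per kilobase of exon, the member was lower than its partner in 50 of 73 pairs in cochlear HCs, 51 in cochlear ENSCs, 50 in vestibular HCs and 58 in vestibular ENSCs, with the partner at a median of 1.655, 2.308, 2.101 and 2.737 times the member's signal per kilobase. The floor enters these ratios more for short genes and was not removed.

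Antisense transcripts were spread unevenly over the libraries. Cochlear HCs held the highest signal of 44 members, where 23.8% of all genes had theirs, and vestibular ENSCs held that of 9, where 33.3% of all genes had theirs (1 tie between the ENSC libraries was counted for the cochlear one). Cochlear ENSCs and vestibular HCs held that of 23 each (21.5% and 21.4% of all genes). Above the tied range in both HC libraries and in neither ENSC library were 16 members, against 3.18% of all genes. The reverse, both ENSC libraries and neither HC library, held 9 members (5.43% of all genes). Vestibular HCs alone held 4 (1.05% of all genes), cochlear ENSCs alone 3 (1.44%) and vestibular ENSCs alone 4 (4.97%). Above it in cochlear HCs alone were 15 members (1.61% of all genes), with signals there between 34.25 and 112. Those 15 can be in the table through that library alone. A further 13 were above it in both cochlear libraries and in neither vestibular one (1.3% of all genes), and 23 were above it in all 4 (67.1% of all genes).

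**Figure D2:**
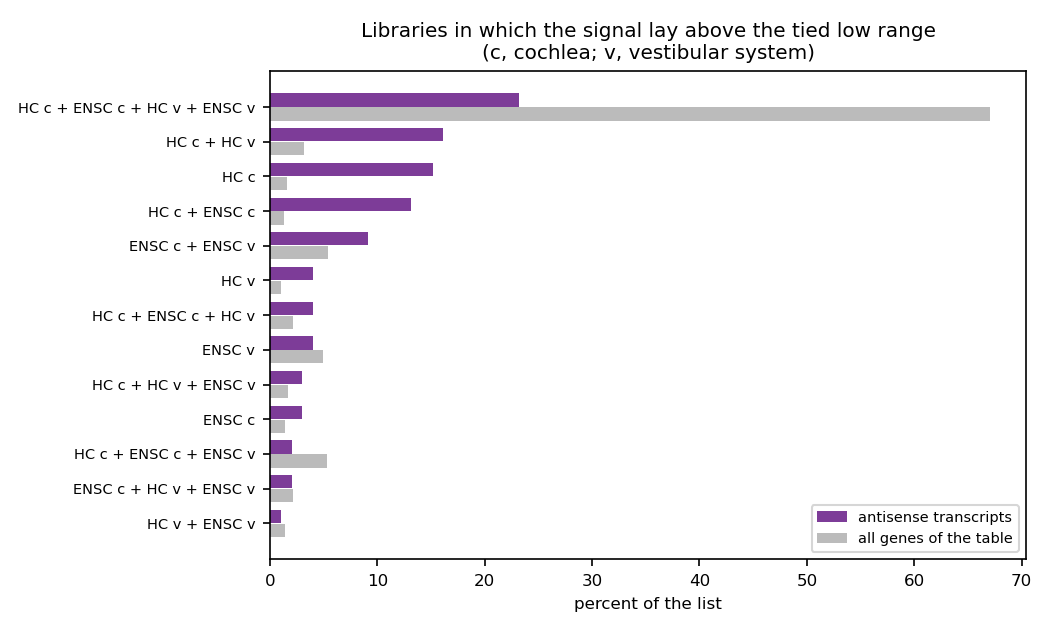
Percent of the antisense transcripts (purple, 99 members) and of all genes (grey, 12814) whose signal lay above the tied low range in exactly the libraries named on the vertical axis. The members were above the range in all 4 libraries in 23.23% of cases and in both HC libraries alone in 16.16%, against 67.1% and 3.18% of all genes.

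The first comparison asked which antisense transcripts differed between HCs and the epithelial cells around them. In both organs more of them were higher in HCs than lower. In such sorted bulk samples more cells of a type and more RNA per cell cannot be told apart. In the cochlea 19 members were at least 3-fold higher in HCs and 4 were lower, where 8.39% and 9.2% of all genes were. In vestibular HCs 22 stood higher and 3 lower, where 13.8% and 14.3% of all genes were. In either organ 30 members were higher (17.1% of all genes) and 6 lower (18.9% of all genes), 11 were higher in both (4.99% of all genes), 1 was lower in both (4.66% of all genes), and none went past 3-fold in opposite directions in the organs (0.406% of all genes). Either way, 23 members were past 3-fold in the cochlea (17.6% of all genes) and 25 in the other organ (28.1% of all genes). In 15 and 14 of these the smaller signal lay in the tied range of its library, and 16 and 24 of them were also past 3-fold by the lower bound.

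The median log2 ratio of the 99 was 0.66 for the cochlea. It was 0.06 for the vestibular system, where 55 were at the floor in ENSCs. Over all genes these medians were 0 and -0.0045. The 133 long intergenic RNAs of the same table, which lie between genes, had 14 higher and 12 lower in cochlear HCs and 30 higher and 9 lower in vestibular HCs. Of the members that shared exonic bases with a coding gene, 13 of 40 were higher in HCs of either organ and 4 were lower. Of those with overlapping spans alone, 12 of 32 were higher and 1 was lower, of the divergent members 1 of 8 was higher, and of those without a partner 2 of 13 were higher and 1 was lower. These counts stand beside 17.1% of all genes higher and 18.9% lower in either organ, and the classes were not tested against each other.

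**Figure D3:**
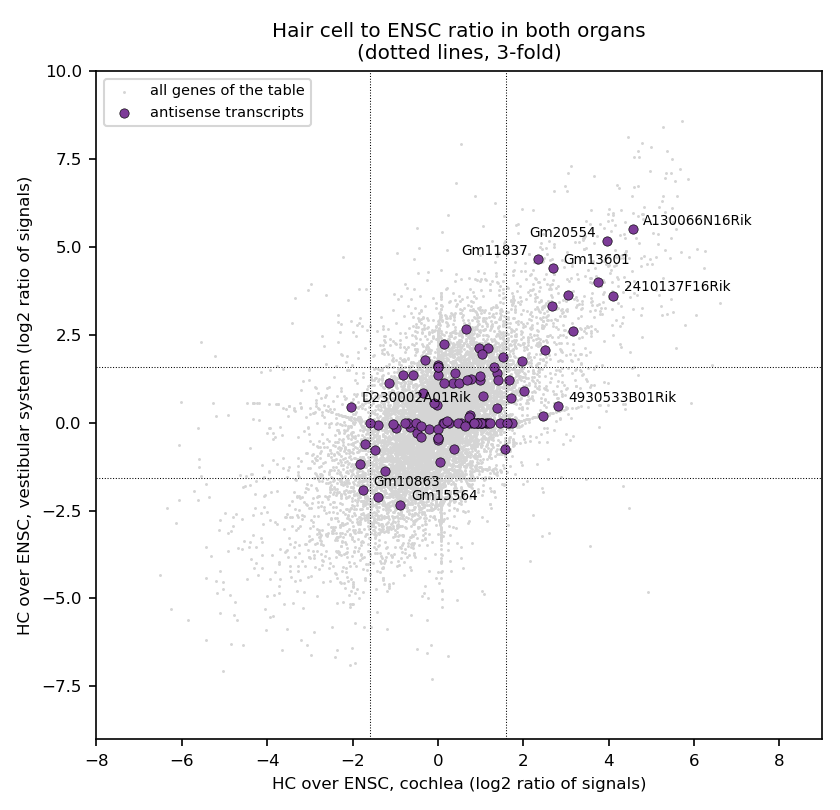
Log2 ratio of HC over ENSC signal in the cochlea (horizontal) and the vestibular system (vertical) for the 99 antisense transcripts (purple) over all genes (grey), with dotted lines at 3-fold. The 11 members at upper right were past 3-fold in HCs of both organs, and *A130066N16Rik* had log2 ratios of 4.56 and 5.51.

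*Gm13601* (ENSMUSG00000087467, chr2:67329101-67354582, minus strand) is antisense to *Xirp2*, which encodes an actin-binding protein of muscle and of HC stereocilia. Its signal was 143.25 in cochlear HCs, 22 in cochlear ENSCs, 420.75 in vestibular HCs and 20 in vestibular ENSCs, at least 6.297-fold higher in cochlear and at least 21.04-fold higher in vestibular HCs. *Xirp2* had 2050.25, 75, 4976.25 and 20 in the same libraries, 27.34-fold and at least 248.8-fold. Both genes had the same order of libraries, with vestibular HCs first and cochlear HCs second, and the 168 shared coding bases printed above make up 41.58% of the exonic length of *Gm13601*. A neighbour on the same strand, *Gm13599* (ENSMUSG00000087043, chr2:67147716-67234548), which overlaps no coding gene and was chosen after its values were seen, had 135, 21, 199.75 and 20.

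*2410137F16Rik* (ENSMUSG00000086219, chr5:116888729-116915496, plus strand) lies at the end of *Srrm4*, which encodes a splicing regulator of neurons and HCs. It had 389.75 and 246 in HCs against 22.5 and 20 in ENSCs, at least 17.13-fold and at least 12.3-fold higher. *Srrm4* had 1358.25 and 1470.25 in HCs against 45.5 and 64.25 in ENSCs, 29.85-fold and 22.88-fold. Member and partner were thus both high in HC libraries and low in ENSC libraries, while they shared 68 bases, 1.86% of the member's exons and none of them coding.

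*Gm4473* (ENSMUSG00000086522, chr10:120336213-120338944, plus strand), chosen after its values were seen, starts 56 bases from *Msrb3*, the gene of a methionine sulfoxide reductase whose loss causes deafness. It had 178 and 248.5 in HCs against 21.5 and 20 in ENSCs, at least 7.824-fold and 12.43-fold higher. *Msrb3* had 2070.75 and 1229.75 in HCs and 75 and 225 in ENSCs, 27.61-fold and 5.466-fold higher. No exonic base is shared by these genes, and the other 7 divergent members were all under 3-fold between HCs and ENSCs.

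*Gm11837* (ENSMUSG00000086587, chr4:14857055-14880177, plus strand) overlaps *Necab1*, which encodes a calcium-binding protein with EF hands. Its signals were 731.25 in cochlear HCs, 144 in cochlear ENSCs, 504 in vestibular HCs and 20 in vestibular ENSCs. It was 5.078-fold higher in cochlear HCs and at least 25.2-fold higher in vestibular HCs. *Necab1* had 85.25, 36.25, 190.75 and 20, 2.352-fold and at least 9.537-fold higher. Per kilobase of exon the antisense transcript was above its partner in the 3 libraries where they lay above the floor, at 722.6 against 16.28 in cochlear HCs and 498 against 36.42 in vestibular HCs, with the shared bases being 40.51% of its exonic length.

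*Dnm3os* (ENSMUSG00000078190, chr1:164147754-164155681, plus strand) lies in *Dnm3*, the gene of a dynamin that pinches off membrane vesicles, and is the host of 2 microRNA hairpins on its own strand, *Mir199a-2* and *Mir214*. It had 81 in cochlear HCs, 37.25 in vestibular HCs and 20 in both ENSC libraries, at least 3.56-fold and at least 1.863-fold higher in HCs. *Dnm3* had 647.5 and 505.25 in HCs against 63 and 20.25 in ENSCs, 10.28-fold and 24.95-fold. Both were higher in HCs of both organs, and the vestibular log2 ratio of *Dnm3os* was 0.90 as deposited and -0.03 after correction for exonic length and GC content. The mature microRNAs of this host were not measured here. Their sequences, from RefSeq (GRCm38.p6), are shown because they are the known products of the transcript, with the seed (bases 2 to 8) in capitals.
mmu-miR-199a-5p: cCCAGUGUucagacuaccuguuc
mmu-miR-199a-3p: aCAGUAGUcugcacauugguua
mmu-miR-214-5p: uGCCUGUCuacacuugcugugc
mmu-miR-214-3p: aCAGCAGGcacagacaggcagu

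All 4 seeds differ from one another.

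*A130066N16Rik* (ENSMUSG00000053889, chr9:34725818-34737094, minus strand) lies within the span of *Kirrel3*, which encodes a cell adhesion molecule of the immunoglobulin superfamily. It had 738 in cochlear HCs, 31.25 in cochlear ENSCs, 922.5 in vestibular HCs and 20.25 in vestibular ENSCs, 23.62-fold and 45.56-fold higher in HCs. *Kirrel3* had 123.75, 637.5, 42.75 and 1492, and was 5.152-fold and 34.9-fold lower in HCs. In both organs the antisense transcript was high where the coding gene was low, with no exonic base in common. Of the 23 members higher in HCs that had a partner in the table, this was the one whose partner was at least 3-fold lower in HCs of either organ, while 9 partners were higher and 13 stayed under 3-fold in both. For *Fmn1*, 1 of the 9, the organ past 3-fold was not that of its member.

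*Gm16054* (ENSMUSG00000087431, chr5:82220934-82227451, minus strand) overlaps *Lphn3*, which encodes the adhesion receptor latrophilin 3. It had 282 and 124.5 in HCs against 31.25 and 20.25 in ENSCs, 9.024-fold and 6.148-fold higher. *Lphn3* had 2270 and 1455.25 in HCs and 1250.75 and 2344.25 in ENSCs, 1.815-fold higher in cochlear and 1.611-fold lower in vestibular HCs. The exons share 1130 bases, 62.12% of the member's length and the largest share among the 40.

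*4930533B01Rik* (ENSMUSG00000084798, chr2:113531210-113548707, minus strand) lies in *Fmn1*, which encodes the actin nucleator formin 1. It had 280.75 in cochlear HCs and 39.75, 28 and 20 in cochlear ENSCs, vestibular HCs and vestibular ENSCs, 7.063-fold above cochlear ENSCs and at least 9.205-fold above vestibular HCs. *Fmn1* had 7301.25, 5033, 2763.5 and 826.5, with ratios of 1.451 and 2.642 in the same 2 comparisons. It was 3.344-fold higher in vestibular HCs than in vestibular ENSCs. The antisense transcript was thus high in 1 library, whereas *Fmn1* was high in every library. The other antisense transcript of this gene, *Gm13964*, chosen after its values were seen, also had its highest signal in cochlear HCs, at 45.25, with 23, 20 and 20 in the others. *1700071M16Rik* (ENSMUSG00000090307, chr17:43725289-43729391, minus strand) overlaps *Pla2g7*, which encodes an acetylhydrolase of platelet-activating factor. It had 183.75 and 61.75 in cochlear HCs and ENSCs and 26.5 and 44.5 in vestibular HCs and ENSCs, whereas *Pla2g7* had 1603.75, 785, 84.25 and 2328.75. Both were higher in HCs in the cochlea (2.976-fold and 2.043-fold) and lower in them on the vestibular side (at least 1.459-fold and 27.64-fold).

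Partners were also looked up in a list of transcription factors that pattern the ear. From the list of 35 otic transcription factors 3 had an antisense member, *Emx2*, *Dlx6* and *Tbx3*, and none of 27 HC genes did. All 12814 genes held 72 distinct partners, so counts this small were not read as a result about the members. *Emx2os* (ENSMUSG00000087095, chr19:59499594-59533125, minus strand) starts 55 bases from *Emx2*, a homeobox gene that sets the orientation of hair bundles. It had 141.5 and 143.25 in cochlear HCs and ENSCs and 33.75 and 23.75 in vestibular HCs and ENSCs. Its cochlear signal was 4.193-fold above the vestibular one in HCs and 6.032-fold in ENSCs. It differed 1.012-fold between cochlear HCs and ENSCs and was 1.421-fold higher in vestibular HCs than in vestibular ENSCs. *Emx2* had 1630.25, 815.75, 509 and 116, 3.203-fold and 7.032-fold higher on the cochlear side. Both genes of this pair were therefore higher in the cochlea in either cell type, while *Emx2* was also 1.998-fold and 4.388-fold higher in HCs than in ENSCs.

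*D230002A01Rik* (ENSMUSG00000046413, chr8:94324314-94331438, plus strand) begins in the coding sequence of *Irx3*, an Iroquois homeobox gene that is not on that list. Its signals were 51.25, 209.5, 27.5 and 20 in cochlear HCs, cochlear ENSCs, vestibular HCs and vestibular ENSCs, those of *Irx3* 98, 197.25, 27.25 and 20. Both were highest in cochlear ENSCs, where the member was 4.088-fold above cochlear HCs and at least 10.47-fold above vestibular ENSCs, and *Irx3* 2.013-fold and at least 9.863-fold. The 124 shared bases printed above are 3.363% of the member's exons. *Dlx6as1* (ENSMUSG00000090063, chr6:6770189-6819533, minus strand) spans *Dlx6*, a homeobox gene of the vestibular part of the ear, and went the other way. It had 21 and 20.25 in the cochlear libraries and 41.25 and 88.75 in vestibular HCs and ENSCs, beside 20, 20, 38.5 and 46.75 for *Dlx6*. In vestibular ENSCs it was at least 3.901-fold above cochlear ENSCs. *Gm2301*, antisense to *Tbx3* and chosen after its values were seen, was at the floor in 3 libraries and at 27.25 in vestibular ENSCs, where *Tbx3* had 3319.75.

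*Gm16136* (ENSMUSG00000089804, chr15:37161676-37163064, minus strand) overlaps the start of *Grhl2*, a transcription factor of epithelial barriers. It had 45 and 38.75 in HCs against 158.5 and 88 in ENSCs, 3.522-fold and 2.271-fold lower in HCs. *Grhl2* had 97 and 111 in HCs and 454.25 and 651.25 in ENSCs, 4.683-fold and 5.867-fold lower. Among the 4 members lower in HCs with a partner in the table, this was the one whose partner was at least 3-fold lower too. *Airn* (ENSMUSG00000078247, chr17:12934177-13052988, plus strand) is the imprinted transcript that silences the paternal copy of *Igf2r*, the receptor that clears insulin-like growth factor 2. It had 43.75 and 33.75 in HCs and 102.75 and 87 in ENSCs, 2.349-fold and 2.578-fold lower in HCs, and *Igf2r* had 311 and 179.5 against 716.5 and 710.25, 2.304-fold and 3.957-fold lower. Transcript and target were both lower in the HC library of each organ, with every signal of *Airn* above the tied range.

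Among the members with the highest mean signal, 2 reached a signal of 1000. *Gm16185* (ENSMUSG00000084911, chr9:96985745-96989029, plus strand) lies within *Slc25a36*, which encodes a mitochondrial carrier. It had 1792 and 794.75 in cochlear HCs and ENSCs and 1150.5 and 264 in vestibular HCs and ENSCs, 2.255-fold and 4.358-fold higher in HCs. *Slc25a36* had 2800.25, 2127, 2291.25 and 1876.5, at most 1.317-fold apart between HCs and ENSCs. The exons of *Gm16185* are poor in G and C (33.65%), and after correction for exonic length and GC content its vestibular log2 ratio went from 2.12 to 1.10, under 3-fold, and that between cochlear and vestibular ENSCs from 1.59 to 0.08. *Gm15564* (ENSMUSG00000086324, chr16:35966838-35983316, minus strand) had the highest single signal of any member. It had 460 and 845.75 in cochlear HCs and ENSCs and 1345.25 and 6745.5 in vestibular HCs and ENSCs, 1.839-fold and 5.014-fold lower in HCs and 7.976-fold higher in vestibular than in cochlear ENSCs. Its partner *Parp9*, a gene of the ADP-ribosyltransferase family, stayed between 20 and 56.5.

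*A130049A11Rik* (ENSMUSG00000089998, chr3:103768459-103772504, minus strand), at the end of *Rsbn1*, had 298.5 and 321.75 in HCs against 22 and 20 in ENSCs, at least 13.12-fold and 16.09-fold higher, beside 2.665-fold and 3.334-fold for *Rsbn1*. Its partner moved the same way by less, and shared bases are 51.93% of its single exon. After correction for exonic length and GC content the vestibular log2 ratio of *Rsbn1* went from 1.74 to 1.11, under 3-fold. *4632419I22Rik* (ENSMUSG00000085208, chr11:86014872-86117945, plus strand), at *Med13* of the Mediator complex, had 95 and 81.5 in HCs against 251.75 and 350.75 in ENSCs, 2.65-fold and 4.304-fold lower, whereas *Med13* stayed between 6043 and 7269.25. Here the antisense transcript varied and the coding gene hardly did. *Gm16124* (ENSMUSG00000086914, chr9:53475351-53489370, plus strand), at the cullin gene *Cul5*, had 72.5, 65.25 and 112.75 in cochlear HCs, cochlear ENSCs and vestibular HCs and 23.75 in vestibular ENSCs, 4.747-fold lower than in vestibular HCs. *Gm17344* (ENSMUSG00000078143, chr8:112383884-112392355, minus strand), at the clathrin adaptor gene *Ap1g1*, was among the even ones, with 410.75, 263.25, 187.25 and 200. No library of *Gm17344* was near the floor. *Gm17036* (ENSMUSG00000091165, chromosome 18), at the kinesin gene *Kif5b*, had 112 in cochlear HCs and 20.25, 23 and 20 elsewhere, while *Kif5b* stayed between 3180.25 and 5316.25. It is 1 of the 15 members above the tied range in cochlear HCs alone, and shared bases are 55.91% of its short exons.

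From the study's list of 225 putative targets of RFX transcription factors, 1 gene had an antisense member, beside 72 distinct partners among all 12814 genes. *Gm13782* (ENSMUSG00000086542, chr6:30623944-30632266, plus strand) lies in *Tsga14*, the gene of a protein of cilia and centrosomes. It had 112.75 in vestibular HCs, 32.5 in vestibular ENSCs, 24.5 in cochlear ENSCs and 20 in cochlear HCs, 3.469-fold higher in vestibular HCs than in ENSCs. *Tsga14* had 910.5 and 995.25 in the vestibular libraries and 135.25 and 227.75 in the cochlear ones. Both genes were higher in vestibular than in cochlear HCs, at least 4.649-fold and 6.732-fold, without a shared exonic base.

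Members without a coding partner, or absent from the annotation used, held some of the largest ratios. *Gm20554* (ENSMUSG00000093587), absent from it, had 620.5 and 747.5 in HCs against 40 and 20.75 in ENSCs, 15.51-fold and 36.02-fold higher. Its ratios and those of *A130066N16Rik* were the largest among members above the tied range in all 4 libraries. Their signals in vestibular ENSCs, 20.75 and 20.25, lay near the floor of 20, so the vestibular folds depend on it. The antisense row with the symbol *Eif2c2* (ENSMUSG00000093631) is a separate row from the coding gene of that name and is likewise absent from the annotation. It had 387.5, 135, 80 and 21.75 in cochlear HCs, cochlear ENSCs, vestibular HCs and vestibular ENSCs, 4.844-fold and 6.207-fold higher in cochlear HCs and ENSCs than in the vestibular ones. *2610019E17Rik* (ENSMUSG00000093565), absent as well, had 80.75, 142.25, 55.5 and 21.75, 6.54-fold higher in cochlear than in vestibular ENSCs. Each of these last 2 was above the tied range in all 4 libraries and lowest in vestibular ENSCs, at 21.75, near the floor. Of those with a position and no partner, *2610017I09Rik* (ENSMUSG00000060424, chr1:42705223-42723757, minus strand), which the annotation types as protein coding, had 114.75 and 68.5 in the cochlear and 23.5 and 20 in the vestibular libraries, at least 3.762-fold and 3.425-fold higher on the cochlear side. *4930448D08Rik* (ENSMUSG00000086824, chromosome 18) had 127.5 in vestibular HCs and 31.5, 20 and 20 in cochlear HCs, cochlear ENSCs and vestibular ENSCs. The former was thus higher in the cochlear libraries, and the latter was highest in vestibular HCs and also above the tied range in cochlear HCs. *5430417L22Rik* (ENSMUSG00000074918, chr2:118571494-118574546, plus strand), a single-exon transcript, was present throughout, at 257.5, 124, 382 and 227.5. *Gm10863* (ENSMUSG00000075555, chr15:78996471-79057954, plus strand), chosen after its values were seen, was the 1 member at least 3-fold lower in HCs of both organs, with 20.75 and 23 in HCs and 70.25 and 86.25 in ENSCs, though by the lower bound the folds were 2.897 and 2.828, and after correction for exonic length and GC content its vestibular log2 ratio was -1.11, under 3-fold.

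The other 13 members at least 3-fold higher in HCs of either organ had highest signals between 60 and 152.75, and 4 of them are named here, chosen after their values were seen. *Gm12359*, which shares exonic bases with *Casc3* of the exon junction complex, was past 3-fold in both organs, with 152.75 and 87 in HCs against 26.75 and 20.75 in ENSCs, while *Casc3* had 263.25 and 202.25 against 145.75 and 248.75. *4921525B02Rik*, at the microtubule gene *Slain1*, was also past it in both, with 78 and 68 against 20 and 20, but its vestibular log2 ratio went from 1.77 to 1.18, under 3-fold, after correction for exonic length and GC content. In this group 2 partners were themselves higher in vestibular HCs, where the members were just past the threshold. *4930419G24Rik* had 62.5 in vestibular HCs and 20 elsewhere, while *Pex5l*, which encodes an accessory protein of HCN channels, had 812.75 there and 61.5, 22.5 and 55 in cochlear HCs, cochlear ENSCs and vestibular ENSCs. *Gm15638* had 60 in vestibular HCs and 20 elsewhere, and *Plcxd2* had 644.5 there and 54.75, 71.75 and 70.5. Members at this level sit at the threshold by construction, since 60 is exactly 3-fold over the floor, so a slightly lower signal would change their call. After the same correction the vestibular log2 ratio was 1.52 for *4930419G24Rik* and 1.06 for *Gm15638*, both under 3-fold. Neither organ showed a 3-fold difference for 63 members.

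**Figure D4:**
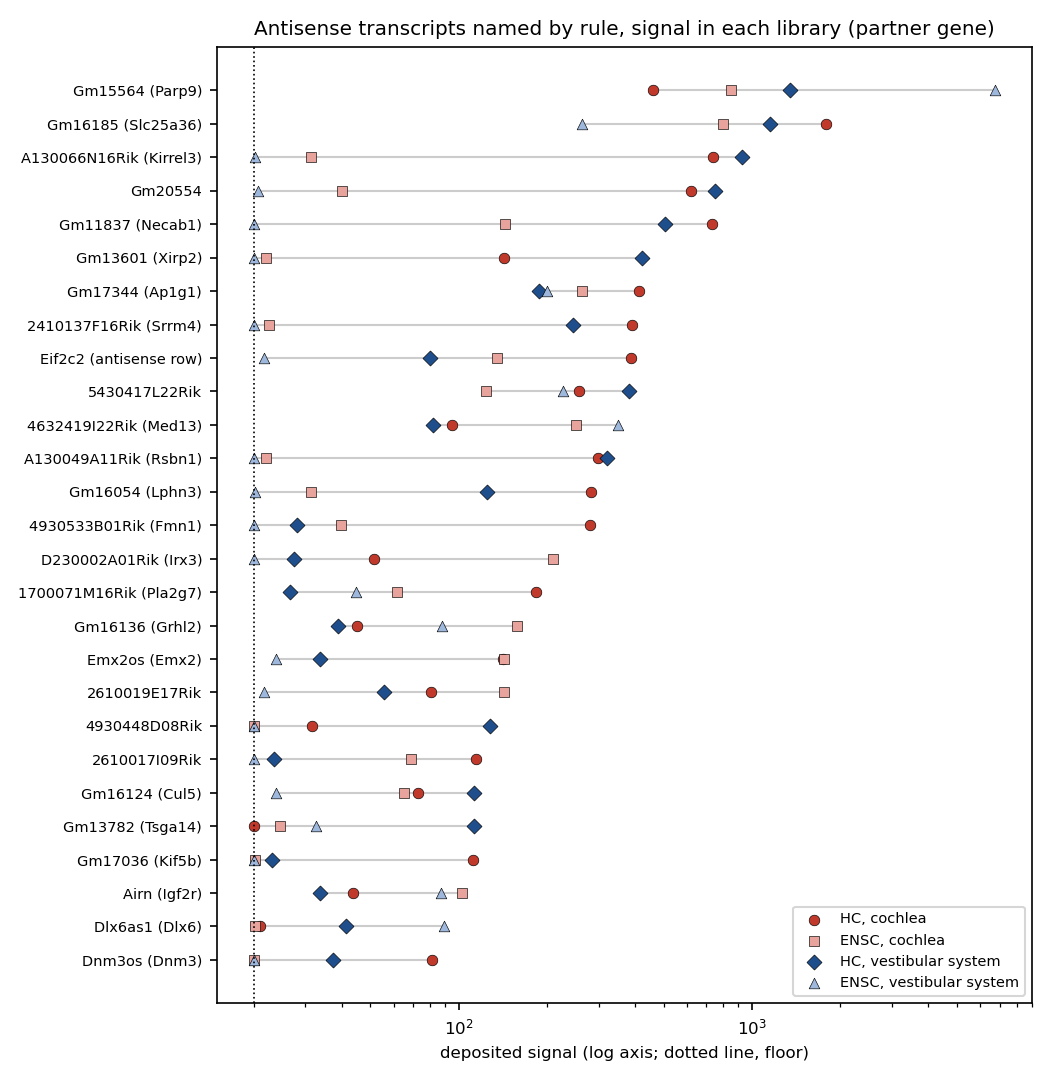
Deposited signal of the 27 antisense transcripts named by rule in each of the 4 libraries on a log axis, with the partner gene in parentheses and a dotted line at the floor of 20. *Gm15564* spans 460 to 6745.5 with its highest signal in vestibular ENSCs, whereas *A130066N16Rik*, *Gm20554*, *Gm11837*, *Gm13601* and *2410137F16Rik* have both HC libraries near or above 140 and the vestibular ENSC library at or near the floor.

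The next comparison was between organs within a cell type. Between the HC libraries, 10 members were past 3-fold towards the cochlea and 5 towards the vestibular system, where 4.21% and 5.09% of all genes were (9.3% either way). Between the ENSC libraries 7 were past it towards the cochlea and 2 towards the vestibular system, where 7.8% and 7.94% of all genes were (15.7% either way). Median log2 ratios were 0.20 and 0.10, beside 0 and 0 for all genes. The members higher in cochlear HCs included *4930533B01Rik*, *1700071M16Rik*, the antisense *Eif2c2* row, *Gm17036*, *2610017I09Rik* and *Emx2os*, and those higher in vestibular HCs *Gm13782* and *4930448D08Rik*. In 12 of the 15 members past 3-fold between HC libraries the smaller signal lay in the tied range, and 9 were also past 3-fold by the lower bound. Both signals of *Emx2os* and of the antisense *Eif2c2* row lay above it in every library.

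Whether an antisense transcript and its partner moved together was asked over the 73 pairs with both genes in the table. Across pairs, the HC to ENSC log2 ratios of member and partner correlated with r = 0.488 and rho = 0.473 for the cochlea, and with r = 0.367 and rho = 0.45 for the vestibular system. Both genes of a pair were read from the same libraries, so these values are descriptions of the libraries and not of conditions. Over the pairs with member and partner above the floor in both libraries, r was 0.472 (rho = 0.465) for 33 pairs in the cochlea and -0.073 (rho = 0.161) for 19 on the vestibular side. In the cochlea, r was 0.617 (rho = 0.535) over the 37 pairs that shared exonic bases and 0.288 (rho = 0.429) over the 36 that did not. In the vestibular system r was 0.715 (rho = 0.672) and -0.0906 (rho = 0.275). Those 36 hold 29 pairs with overlapping spans, at r = 0.0597 in the cochlea and -0.256 in the other organ (rho = 0.282 and 0.11), and 7 divergent pairs, at 0.902 and 0.597 (rho = 0.393 and 0.571). Among the divergent pairs *Gm4473* and *Msrb3* stood apart in the cochlea, at log2 ratios of 3.05 and 4.79. The other members of these pairs lay between -1.47 and 0 there, and r without *Gm4473* was not computed. The pair *A130066N16Rik* and *Kirrel3* weighed heavily among those without shared bases, and without it r over the other 35 was 0.599 and 0.309. Without *Gm13601* and *Xirp2*, r over the other 36 pairs with shared bases was 0.593 and 0.656, and without *2410137F16Rik* and *Srrm4* as well it was 0.483 and 0.603 over 35.

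Of the 72 distinct partners (*Fmn1* has 2 members), 17 were at least 3-fold higher and 15 at least 3-fold lower in HCs of either organ, beside 17.1% and 18.9% of all genes. The 23 members that were higher in HCs and had a partner in the table took 9 of those 17 partners and 1 of those 15. The remaining 13 members, among them *Gm16054*, *Gm16185* and *Gm17036*, were past 3-fold at a coding gene that was not.

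**Figure D5:**
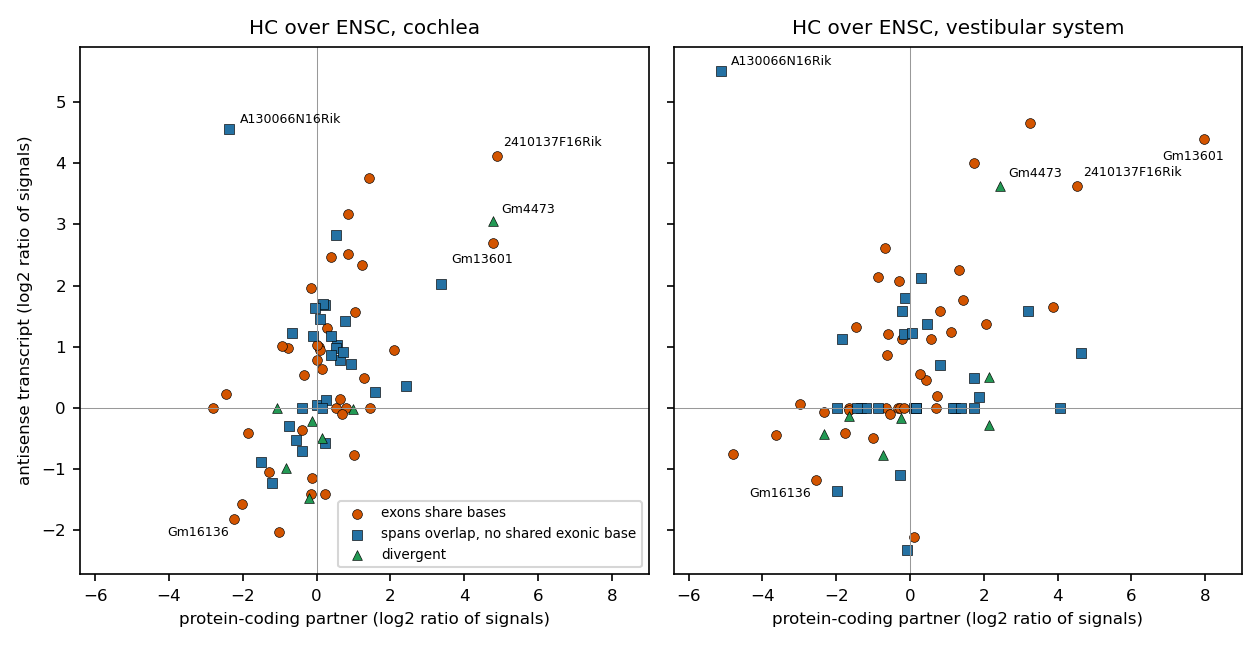
Log2 ratio of HC over ENSC signal of the protein-coding partner (horizontal) and of its antisense transcript (vertical) for the 73 pairs in the cochlea (left) and the vestibular system (right), by the way the genes overlap. *A130066N16Rik* stands at upper left in both organs, with log2 ratios of 4.56 and 5.51 where its partner *Kirrel3* had -2.36 and -5.13, and *Gm13601*, *2410137F16Rik* and *Gm4473* stand at upper right with their partners.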

How the data were processed

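The 4 samples had 1 column each in 1 table, matched to samples by title, and a column titled non-HC stood for the ENSC sample of its organ. The study's design text speaks of triplicates, only these columns were analysed here, and how a column relates to the triplicates is not stated. RNA was polyadenylated per the labels and was amplified with the NuGEN Ovation system. The authors aligned the first 50 bases of each read to mm9 (TopHat), used HTSeq for read counts over ENSEMBL genes, and deposited a signal per gene after quantile normalization and a floor of 20. Versions, annotation release and strand setting are not given in the sources used here. Quantile normalization gave the 4 columns the same sorted values, so the depth of each library and its precision are unknown, and no interval for counting error is given.

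The GENCODE annotation and genome of NCBIM37 (mm9) supplied positions, exonic length, GC content and partners for 93 of the 99 members. Of several overlapping coding genes the partner was the one that shared most exonic bases. In each comparison log2 ratios of deposited signals were taken with no pseudocount, and genes at least 3-fold apart were counted. The top of the tied range was the last signal before the median of the genes' highest signal in other libraries collapsed, a rule tested on simulated data. The members, lists and naming rule were chosen with earlier results of these data known. Named were members among the 5 with the largest log2 ratio in either direction of a comparison and a signal of at least 100, those with the 5 highest mean log2 signals, those past 3-fold in opposite directions, those at listed HC, otic or RFX target genes with a signal of at least 100, and those named after a partner. A member named outside this rule is said to be chosen after its values were seen. Alternatives were floors of 50 and 100, pseudocounts of 20 and 100, members with a signal of at least 100, thresholds of 2 and 5, tied signals raised to the top of their range, centring, and correction for exonic length and GC content by local regression (fraction 0.3, 2 robust iterations). Python 3.11.15, numpy 2.4.6, pandas 2.3.3, scipy 1.17.1, statsmodels 0.14.6, numba 0.67.0 and matplotlib 3.10.9 were used.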

Additional observations from a re-analysis of the deposited data

Results flagged for a closer look

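In 3 members the HC to ENSC ratio pointed in opposite directions in the 2 organs, by at least 1.5-fold in each on the deposited signals, with 1 library per group, so the difference between organs was not tested. They are 3.03% of the members, and 5.13% of all genes met the same condition. *1700071M16Rik*, antisense to *Pla2g7*, had a log2 ratio of 1.57 for the cochlea and of -0.75 for the vestibular system, where the smaller signal lay in the tied range and the fold by the lower bound was at least 1.459. *2610019E17Rik*, absent from the annotation used, had -0.82 and 1.35, with all 4 signals above the tied range. *4833422C13Rik*, antisense to *Ssbp2* and chosen after its values were seen, had -1.15 and 1.12, with signals of 25, 55.5, 43.5 and 20 in cochlear HCs, cochlear ENSCs, vestibular HCs and vestibular ENSCs. None of the 3 was past 3-fold in either organ.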

How the results depend on the processing

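Because most signals were low, counts moved with the treatment of the low end, and the cause was not tested beyond each setting's own construction. Members past 3-fold numbered 23 and 25 between HCs and ENSCs of the cochlea and vestibular system, 15 between HC libraries and 9 between ENSC libraries, and 30 were higher in HCs of either organ. A floor of 50 gave 11, 11, 3, 3 and 12, and a floor of 100 gave 4, 8, 1, 2 and 7. A pseudocount of 20 gave 13, 14, 7 and 15 for all but the ENSC libraries, and one of 100 gave 5, 7, 0, 1 and 7. That 1 ENSC member, *Gm15564*, was higher in the vestibular library in either setting, so the balance between organs turned while no member changed direction. Members that reached 100, a filter that some passed only through the library in which they were high, gave 14 for the cochlea, 8 between HC libraries and 17 in either organ. These are counts among 32 members and not among 99. The first 2 are 43.8% and 25% of them, beside 21.4% and 10.4% of all genes with such a signal. A threshold of 2 gave 46, 43, 36, 21 and 54, and a threshold of 5 gave 12, 11 and 3 for the first 3 comparisons and 13 in either organ. With tied signals raised, 9 members were past 3-fold between HC libraries. The median log2 ratio in the cochlea (0.6554) was 0 with a floor of 50 or 100, 0.16 with a pseudocount of 100 and 1.114 among members that reached 100. In the vestibular system (0.0557) it was 0.61 with tied signals raised, 0.33 after correction for length and GC content, 1.362 at a signal of at least 100 and 0.86 among members above the floor in both libraries. Between HC libraries (0.1979) and ENSC libraries (0.1043) it was 0.4557 and 0.4515 at a signal of at least 100, and 0.4726 among ENSC members above the floor in both. The pair correlation in the cochlea (0.4884) was 0.6167 for pairs with shared exonic bases, 0.2882 for the others and 0.6077 without *A130066N16Rik*, a setting chosen after seeing the data. That in the vestibular system (0.3671) was 0.7154, -0.0906 and 0.5472, and -0.0730 over pairs above the floor in both libraries. Members with an overlapping coding gene fell from 72 to 40 when exons had to overlap. No log2 ratio of a named gene past 3-fold changed sign under the 7 settings run for single genes, whereas 17 of 861 values of ratios under 3-fold did, 14 of them after correction for length and GC content (*Dnm3os* in the vestibular system, from 0.90 to -0.03). The floor, unknown depth and 1 library per group limit every value here. No paired analysis was possible because each group had 1 sample, so replicate numbers gave no second pair within an organ. A fit of HCs against ENSCs over both organs with organ as a block was left out, since the organs are conditions of the study and were not taken as replicates.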
